A study of Mus musculus with 6 samples.

Results

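Ccdc141 encodes a long coiled-coil protein with spectrin-like repeats, and on mouse chromosome 2 its gene lies directly beside Ttn, the gene of titin. Both these genes and Sestd1, the next protein-coding gene on the other side of Ccdc141, were followed here in the left ventricle of mice with and without MURC, the muscle-restricted coiled-coil protein now called cavin-4 (gene symbol Cavin4). All probe sets that the platform annotation pairs with 1 of these 3 gene symbols alone were taken, which gave 7 of 35556 probe sets: 5 for Ccdc141, 1 for Ttn and 1 for Sestd1. The probe sets that the annotation pairs with 1 symbol alone name 19938 genes, and all 7 probe sets of the 3 genes passed the filter on low signal. Ccdc141 was picked because its signal was lower in the knockout in these same arrays, so its values are described without a test. Ttn and Sestd1 were taken for their position.

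The samples were left ventricles of male mice on a C57BL/6 background, 3 labelled as MURC knockout and 3 as wild type, each hybridised to an Affymetrix expression array. Knockout replicates 1, 2 and 3 were 11, 11 and 13 weeks old, and wild-type replicates 1, 2 and 3 were 13, 13 and 12 weeks old. The sources used here do not say how the knockout allele was made or whether it acts in all tissues. Nothing states that each sample is 1 separate animal, although samples of unlike age cannot be from the same ventricle. The p-values therefore refer only to the spread among these arrays, which may be in part technical.

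Titin is the giant elastic protein of striated muscle. A single molecule runs from the Z-disc, where thin filaments are anchored, to the M-band at the middle of the sarcomere, and its extensible part sets much of the passive stiffness of the heart wall. Alternative splicing of Ttn gives shorter, stiffer and longer, more compliant forms. The Ccdc141 protein, also called CAMDI, was described in the developing brain as a partner of DISC1 and of myosin II at the centrosome of migrating neurons, and variants near the gene are associated with resting heart rate in people. The Sestd1 protein combines a lipid-binding SEC14-like domain with spectrin repeats and binds TRPC4 and TRPC5 channels.

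The 3 genes are read from the same strand, and RefSeq lists no other gene between Ttn and Ccdc141. The 250 bases before the annotated start of Ccdc141 and of Ttn are shown because the 2 genes are immediate neighbours that gave unlike signals in the knockout. The windows are on the minus strand of GRCm38.p6, at chr2:77170636-77170885 for Ccdc141 and chr2:76982548-76982797 for Ttn, from RefSeq, and are written 5′ to 3′. Capitals mark matches, on either strand, to 4 motifs: the TATA box TATAAA, the GATA motif AGATAA, the M-CAT motif CATTCC and the myogenic E-box CAGCTG.

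Ccdc141: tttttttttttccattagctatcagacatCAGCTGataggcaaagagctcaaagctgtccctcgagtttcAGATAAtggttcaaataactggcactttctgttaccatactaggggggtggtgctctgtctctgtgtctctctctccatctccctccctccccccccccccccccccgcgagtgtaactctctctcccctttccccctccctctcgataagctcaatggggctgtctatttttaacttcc
Ttn: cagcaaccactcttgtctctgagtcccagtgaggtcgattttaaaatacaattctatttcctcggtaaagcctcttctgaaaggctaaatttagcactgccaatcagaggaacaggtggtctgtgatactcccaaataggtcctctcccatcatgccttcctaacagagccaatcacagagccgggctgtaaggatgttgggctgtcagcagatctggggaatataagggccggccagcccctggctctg

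The Ccdc141 window held 1 myogenic E-box, 221 to 216 bases before the start, and 1 GATA motif, 180 to 175 bases before it. No match to the 4 motifs was found in the Ttn window or in that of Sestd1. Of 32851 RefSeq promoter windows of this length, 13.0% held the E-box, 10.0% the GATA motif, 12.4% the TATA box and 12.6% the M-CAT motif. Both windows held 4 CpG pairs, against a median over all windows of 6, and their GC content was ordinary, with 18364 windows richer in GC than that of Ccdc141 and 18836 richer than that of Ttn. The Sestd1 window stood apart at 86.0% GC with 47 CpG pairs, and 16 of all windows were richer in GC. The RefSeq span of Ccdc141 reaches further upstream than the start used here, and no value in these data shows which start the heart uses.

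The 6 array medians lay between 4.60 and 4.71 on the log2 scale, and each pair of arrays correlated between 0.985 and 0.989 over all probe sets. Cavin4 measured 5.38, 5.74 and 5.59 on the knockout arrays and 8.75, 8.62 and 8.07 on the wild-type arrays, so each array followed its label, although the sources used here do not say whether its probe set lies in the deleted part. The 8 cardiomyocyte markers, among them Myh6 and Tnnt2, lay between 11.48 and 13.26 on every array, and their differences between genotypes were between -0.11 and 0.06. Knockout replicate 2 stood apart in 2 atrial genes: Myl7 and Myl4 measured 7.22 and 8.67 on it, against 3.61 to 4.11 and 5.41 to 5.61 on the other 5 arrays. Nppa and Sln were also highest on it, at 11.44 and 3.49, against at most 11.13 and 3.12 on the other arrays. Bmp10, at 2.68, was not. Sln and Bmp10 were below the filter on low signal. Values of Ccdc141, Ttn and Sestd1 are therefore also given without knockout replicate 2.

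Ccdc141 signal was lower in the knockout in all 5 probe sets, with log2 differences from -0.94 to -0.20 and a median of -0.81. In 4 of the 5 every knockout array lay below every wild-type array, while in the fifth the genotypes overlapped. Over all 24898 probe sets tested, 59.1% had a difference below 0 and 12.9% were lower without overlap. Since Ccdc141 was chosen on this contrast, and since its 5 probe sets read the same gene in the same 6 RNA samples, nothing is read from these shares.

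Probe set 10484201 showed the widest difference. It measured 9.43, 9.62 and 8.93 on knockout replicates 1 to 3 and 10.20, 10.33 and 10.26 on the wild-type arrays. The 2 genotypes were 0.58 apart at their closest. The means were 9.33 ± 0.36 and 10.26 ± 0.07 (SD, n = 3), a log2 difference of -0.94, so the knockout signal was 52.2% of the wild-type signal.

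Probe sets 10484203 and 10484205 behaved much alike. The first measured 8.91, 9.08 and 8.58 in the knockout, against wild-type values of 9.65, 9.72 and 9.67, or 8.86 ± 0.25 against 9.68 ± 0.04 (SD, n = 3), a log2 difference of -0.82. The second measured 8.05, 8.02 and 7.71 in the knockout, against wild-type values of 8.69, 8.81 and 8.71, or 7.93 ± 0.19 against 8.74 ± 0.06 (SD, n = 3), a log2 difference of -0.81. In both the knockout arrays were all below the wild-type arrays, by at least 0.57 and 0.64, and the knockout signal was 56.5% and 57.0% of the wild-type signal.

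At the lowest and the highest ID the difference was smaller. Probe set 10484197 measured 9.15, 9.24 and 8.81 in the knockout, against wild-type values of 9.56, 9.58 and 9.41, 9.07 ± 0.23 against 9.52 ± 0.09 (SD, n = 3), a log2 difference of -0.45 with a gap of 0.17 between the genotypes. Probe set 10484207 measured 9.05, 9.22 and 9.02 in the knockout, against wild-type values of 9.38, 9.40 and 9.10, 9.10 ± 0.11 against 9.29 ± 0.17 (SD, n = 3), a log2 difference of -0.20. Its genotypes overlapped, because wild-type replicate 3 at 9.10 lay below knockout replicate 2 at 9.22.

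**Figure D1:**
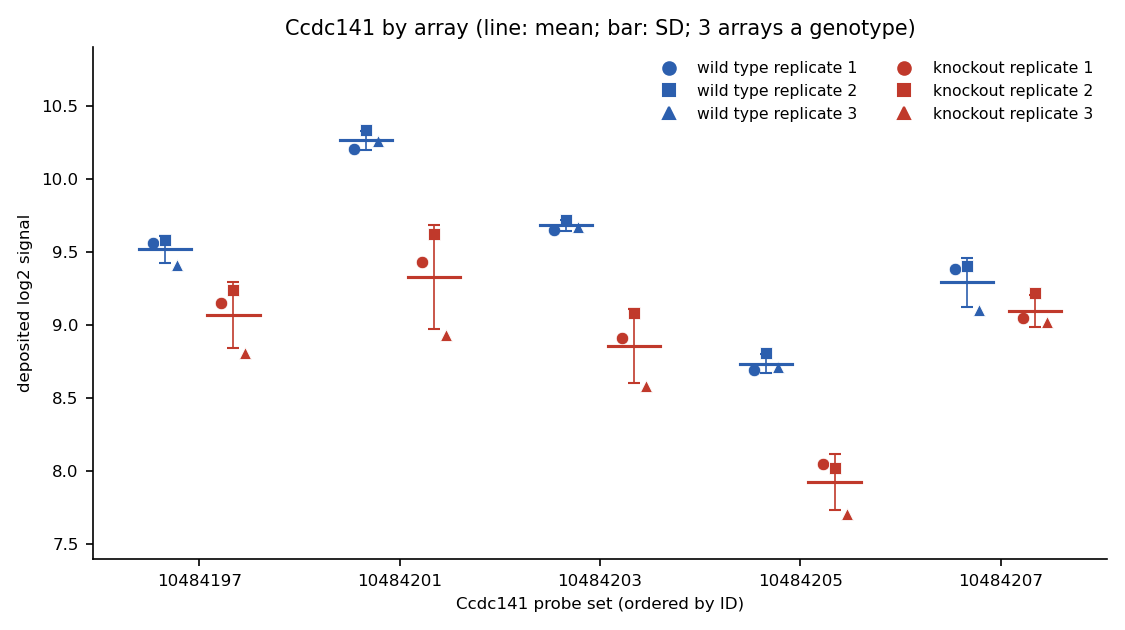
Deposited log2 signal (vertical axis, which does not start at 0) of the 5 Ccdc141 probe sets, ordered by ID, on 3 wild-type (blue) and 3 knockout (red) arrays; lines are means and bars SDs. Knockout arrays lie below all wild-type arrays in 4 probe sets and overlap with them in 10484207, and knockout replicate 3 (triangles) is the lowest red point in each.

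The unequal size of the difference can be seen array by array, since subtracting one Ccdc141 probe set from another on the same array cancels whatever the array adds to both. The pair whose genotype differences were most unlike and the pair most alike are given. Both were picked on these values, so they are a description only. Probe set 10484201 minus 10484207 came to between -0.09 and 0.40 on the knockout arrays and between 0.82 and 1.16 on the wild-type arrays. Probe set 10484203 minus 10484205 came to between 0.86 and 1.06 in the knockout and between 0.91 and 0.96 in the wild type, so the genotypes differed by about the same amount in both. The annotation pairs all 5 with the same reference transcript and does not say which part of it each reads.

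Averaged over its 5 probe sets, Ccdc141 measured 8.92, 9.04 and 8.61 on knockout replicates 1 to 3 and 9.50, 9.57 and 9.43 on wild-type replicates 1 to 3. The genotypes did not overlap in this mean. It came to 8.85 ± 0.22 against 9.50 ± 0.07 (SD, n = 3), a log2 difference of -0.64 or 1.56-fold lower in the knockout.

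The knockout arrays were not alike among themselves. Knockout replicate 3 was the lowest of the knockout arrays in all 5 probe sets, and knockout replicate 2 the highest in 4 of 5. In the wild type, replicate 2 was the highest in all 5. Among the 3203 probe sets of the whole table that were lower without overlap, knockout replicate 3 was the lowest knockout array in 1922 and wild-type replicate 2 the highest wild-type array in 792. Without knockout replicate 3 the mean of the 5 probe sets differed by -0.52, and without knockout replicate 2, the array with high Myl7 and Myl4, by -0.73.

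Without knockout replicate 2 the log2 differences of the 5 probe sets, in ID order, were -0.54, -1.08, -0.94, -0.86 and -0.26. Each of the 5 differences was larger without knockout replicate 2 than with it. This follows from its values, which lay above the mean of the knockout arrays in all 5 probe sets. Leaving out any 1 array kept each of the 5 differences below 0, with 10484201 between -1.08 and -0.74 and 10484207 between -0.29 and -0.14.

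Age differed between the genotypes, and knockout replicate 3 was the 1 knockout sample of 13 weeks. Set against the 2 wild-type samples of that age, it was lower by 1.34 on the log2 scale at 10484201, at 8.93 against a mean of 10.27, and by 0.37 at 10484207, at 9.02 against 9.39. With age as a covariate the fitted differences in ID order were -0.57, -1.17, -0.99, -0.93 and -0.18. With 1 knockout sample of that age, age and array cannot be told apart for it.

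Tissue makeup was followed through marker lists, since in bulk tissue fewer cells of a type and less RNA per cell cannot be told apart. The summed signal of the 8 cardiomyocyte markers, on the linear scale, was 52826 to 53822 in the knockout and 53207 to 54344 in the wild type, with overlap. All 7 leukocyte markers were lower in the knockout, with summed signals of 956 to 1046 against 1132 to 1450, and all 5 smooth muscle and pericyte markers were higher, at 1426 to 1509 against 1330 to 1413. The genotypes did not overlap in either of these sums, but did in the sums of all other marker lists. Over all probe sets tested, 59.1% had a difference below 0. Singly, only C1qb, H2-Aa, Myh11 and Tagln of the leukocyte, smooth muscle and pericyte markers did not overlap, beside 19.0% of all probe sets in either direction. The cardiomyocyte marker Actc1 was also lower without overlap, with a log2 difference of -0.11. None of these markers passed the adjusted threshold in limma. The part of these cells in the Ccdc141 difference was not tested.

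Ttn, the gene next to Ccdc141, differed little. Its single probe set, 10483871, measured 11.62, 11.69 and 11.66 on knockout replicates 1 to 3 and 11.62, 11.60 and 11.59 on the wild-type arrays. The values met at 11.62, shared by knockout replicate 1 and wild-type replicate 1. The means were 11.66 ± 0.04 and 11.60 ± 0.02 (SD, n = 3), a log2 difference of 0.05 (SE 0.05, 95% interval -0.06 to 0.16, limma adjusted p = 0.683). In limma's fit over all 24898 probe sets 0.00402% passed the adjusted threshold, which is 1 probe set, that of Cavin4. That count depended on the scaling: after quantile normalization 96 were higher and 34 lower, and after median centring 86 were higher and 19 lower. With 1 value for Ttn, the array table does not separate titin's spliced forms, and which of them this probe set reads was not tested.

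Sestd1, on the other side, was also not separated between genotypes. Its probe set, 10484227, measured 6.82, 6.85 and 6.89 in the knockout, against wild-type values of 6.98, 6.92 and 6.89. Knockout replicate 3 and wild-type replicate 3 shared the value 6.89. The means were 6.85 ± 0.04 and 6.93 ± 0.05 (SD, n = 3), a log2 difference of -0.08 (SE 0.07, 95% interval -0.23 to 0.08, limma adjusted p = 0.676). Without knockout replicate 2 the log2 differences of Ttn and Sestd1 were 0.04 and -0.07, with limma adjusted p = 0.857 and 0.794. These p-values do not show that either gene is equal in the 2 genotypes; the intervals leave room for small differences in either direction.

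**Figure D2:**
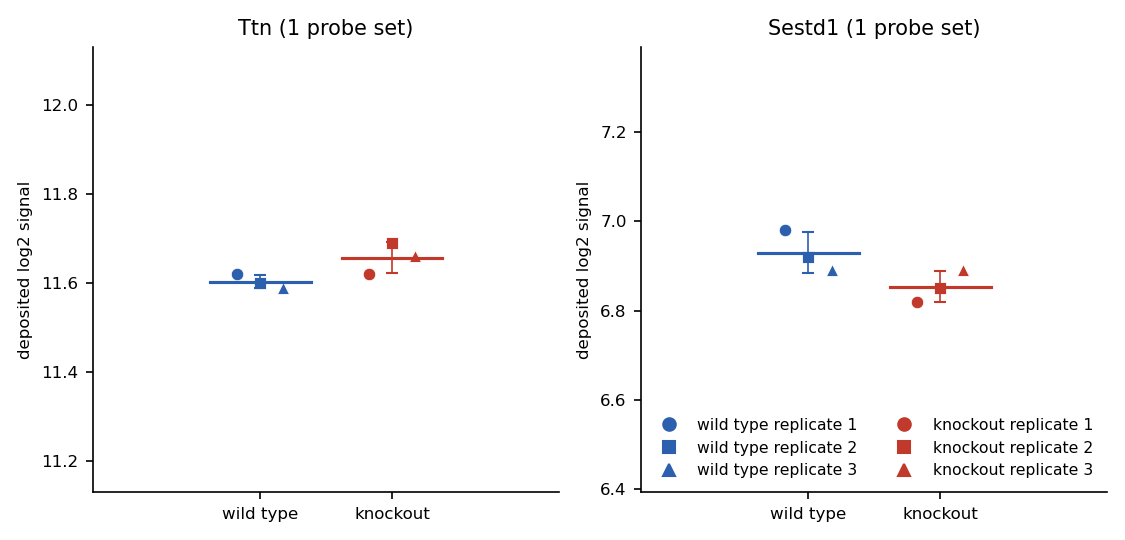
Deposited log2 signal (vertical axes, each 1 log2 unit tall and not starting at 0) of the Ttn and Sestd1 probe sets on 3 wild-type and 3 knockout arrays; lines are means and bars SDs. The genotypes meet at 11.62 for Ttn and at 6.89 for Sestd1.

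The other genes around Ccdc141 were taken by position alone. RefSeq places 32 genes, 13 of them protein-coding, within 1 Mb of Ccdc141, itself, Ttn and Sestd1 included. Of the rest, 10 had a probe set with 1 symbol, and 8 of these passed the filter on low signal, a mean log2 value of 3.45, below which Cyct, a testis cytochrome c, and Pjvk, a hearing gene, fell. Of the 8, 5 were higher and 3 lower in the knockout, with a median log2 difference of 0.01, against -0.04 over all probe sets tested. Their differences ran from -0.10 to 0.20, and none passed the adjusted threshold in limma. At an unadjusted p under 0.05 there was 1 of 8, beside 13.7% of all probe sets.

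That gene was Cwc22, which encodes a splicing factor that also loads the exon junction complex. Its brightest signal, held by 7 probe sets with identical values, was 6.62, 6.53 and 6.57 in the knockout, against wild-type values of 6.45, 6.31 and 6.43, a log2 difference of 0.18 (limma adjusted p = 0.359), without overlap, as in 6.12% of all probe sets. The remaining Cwc22 probe set, 10484249, overlapped and differed by 0.02 (limma adjusted p = 0.947). The 95% intervals, 0.00 to 0.35 for the 7 and -0.21 to 0.26 for 10484249, overlapped. The IDs of the 7 follow those of plus-strand genes, although Cwc22 is on the minus strand. Whether these 7 read Cwc22 alone was not tested. Without any 1 knockout array, or without wild-type replicate 3, 0 of the 8 genes had an unadjusted p under 0.05 in limma. The RNA-binding protein gene Rbm45 differed by 0.20 and the phosphodiesterase gene Pde11a by 0.14, both with overlap. Plekha3, which encodes a lipid-binding protein of the Golgi, differed by -0.10, the zinc finger gene Zfp385b by -0.05 and the chaperone gene Fkbp7 by -0.01. Prkra, an activator of the kinase PKR, differed by 0.02, and the sterol-binding protein gene Osbpl6 by 0.00.

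**Figure D3:**
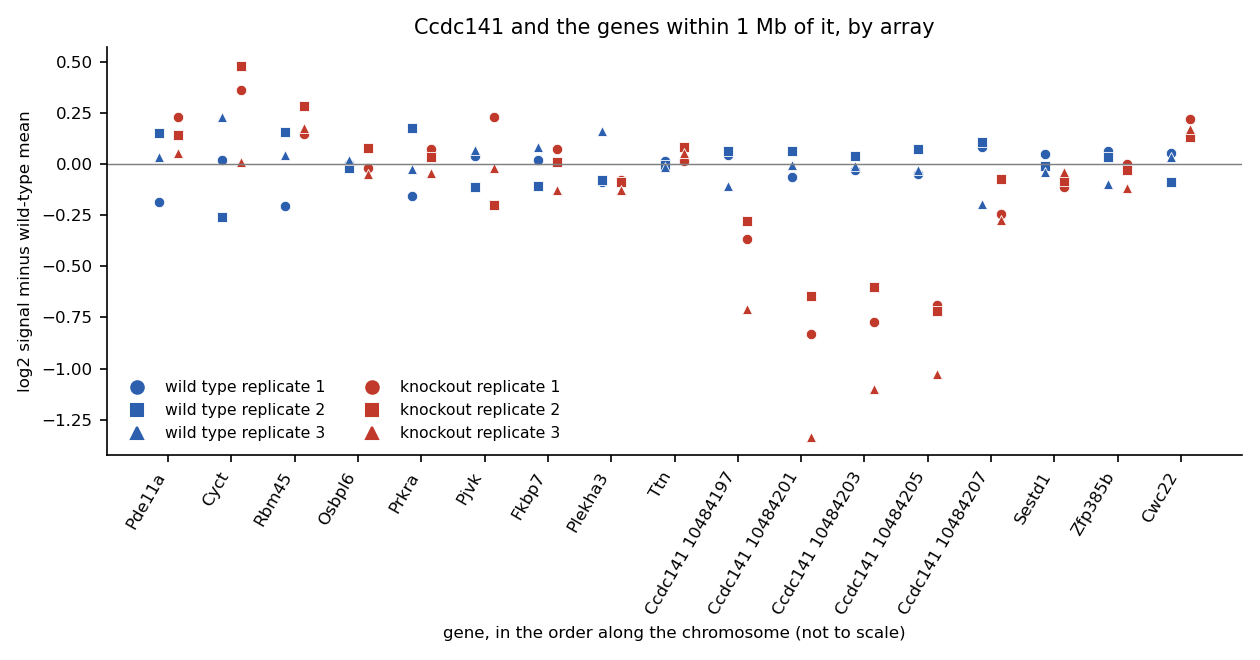
Log2 signal minus the wild-type mean of the same probe set (vertical axis) for Ccdc141 and the genes within 1 Mb, in chromosomal order and not to scale; blue points are wild-type and red points knockout arrays, 1 probe set a gene except for Ccdc141. The 4 Ccdc141 probe sets 10484197, 10484201, 10484203 and 10484205 have all red points below the blue ones, while Ttn and Sestd1 lie near 0.

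Genes whose proteins bind titin or are anchored on it were listed from their known roles. Of 28 such genes 26 were tested, with 13 lower, 12 higher and 1 equal in the knockout and a median log2 difference of 0.00. None passed the adjusted threshold in limma, although 1 did when only annotated probe sets were tested or when probe sets were averaged per gene. In the first fit 5 had an unadjusted p under 0.05, 3 higher and 2 lower, beside 4.71% of all probe sets higher and 9.02% lower. In 7 the genotypes did not overlap, 3 of them lower and 4 higher in the knockout, beside 19.0% of all probe sets in either direction. The unadjusted count was 3 without knockout replicate 3 or without wild-type replicate 2.

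The smallest p in this list belonged to Trim54, a ubiquitin ligase of the MuRF family found on the sarcomere. It measured 9.62, 9.59 and 9.77 in the knockout, against wild-type values of 9.29, 9.37 and 9.37, a log2 difference of 0.32 (SE 0.07, limma adjusted p = 0.113), without overlap. Tcap, which caps the end of titin in the Z-disc, measured 11.48, 11.52 and 11.47 against 11.28, 11.29 and 11.37, a log2 difference of 0.18 (limma adjusted p = 0.197). Myot, a Z-disc protein gene, differed by 0.17 and Ankrd23, whose protein sits on the spring region of titin, by -0.27. All 4 had genotypes that did not overlap, but they were named for the smallest p in the list, so this goes with that choice. None of the 4 passed. Myh6, the main myosin heavy chain of the adult mouse ventricle, was equal on average, and Actn2, the alpha-actinin that anchors titin in the Z-disc, differed by less than 0.01.

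Genes that act on titin's splicing or phosphorylation made up another list, in which 10 of 12 genes were tested. Of these 6 were lower, 3 higher and 1 equal, the median log2 difference was -0.05, and none passed the adjusted threshold in limma; 2 had an unadjusted p under 0.05, 1 higher and 1 lower, beside 13.7% of all probe sets. Rbm20, the splicing factor that removes titin's spring exons and is itself a cardiomyopathy gene, measured 8.84, 9.05 and 8.93 in the knockout, against wild-type values of 8.99, 9.00 and 8.73, a log2 difference of 0.03. The genotypes overlapped at Rbm20.

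The splicing factor genes Rbfox2 and Rbfox1 differed in opposite directions, by 0.23 and -0.16 (limma adjusted p = 0.282 and 0.333), each without overlap. Prkca, a kinase that phosphorylates the PEVK part of titin's spring, differed by -0.12, and Ppp5c, a phosphatase that acts on titin, by -0.09. Ptbp1, a splicing repressor gene, was named here after its values were seen. Its probe set 10364518, which the list counted, differed by -0.06 with overlap (95% interval -0.26 to 0.14). Its probe set 10407390 differed by -0.29 between genotypes that did not overlap (95% interval -0.51 to -0.07, limma adjusted p = 0.246). The 95% intervals overlapped. Without knockout replicate 1 or 3, 0 genes of this list had an unadjusted p under 0.05 in limma, and without any 1 of the other 4 arrays 1 gene did.

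Described partners of the Ccdc141 and Sestd1 proteins made up the last list, with 11 of 12 genes tested, 6 lower and 5 higher and a median log2 difference of -0.01. None passed the adjusted threshold in limma, and 2 had an unadjusted p under 0.05, 1 higher and 1 lower, beside 13.7% of all probe sets. Disc1, the partner from which CAMDI takes part of its name, measured 5.24, 5.41 and 5.30 in the knockout, against wild-type values of 5.40, 5.32 and 5.42, a log2 difference of -0.06. Myh10, the nonmuscle myosin IIB heavy chain, differed by 0.06. Both overlapped between genotypes.

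Pafah1b1, whose product LIS1 regulates dynein, measured 8.74, 8.74 and 8.83 in the knockout, against wild-type values of 8.58, 8.50 and 8.37, a log2 difference of 0.29 (SE 0.07, limma adjusted p = 0.154), without overlap. The deacetylase gene Hdac6 measured 5.88, 5.97 and 5.67 against 6.17, 6.08 and 6.03, a log2 difference of -0.25 (limma adjusted p = 0.329), also without overlap. Dvl2, a Wnt pathway gene, differed by -0.15 and Ndel1, a dynein partner, by 0.06. Leaving out an array numbered 1 or 2 from the wild type, or 1 or 3 from the knockout, left 1 gene of the list in place of 2 with an unadjusted p under 0.05. The channel gene Trpc5 fell below the filter, and Trpc4, at a log2 difference of -0.04, was dim.

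**Figure D4:**
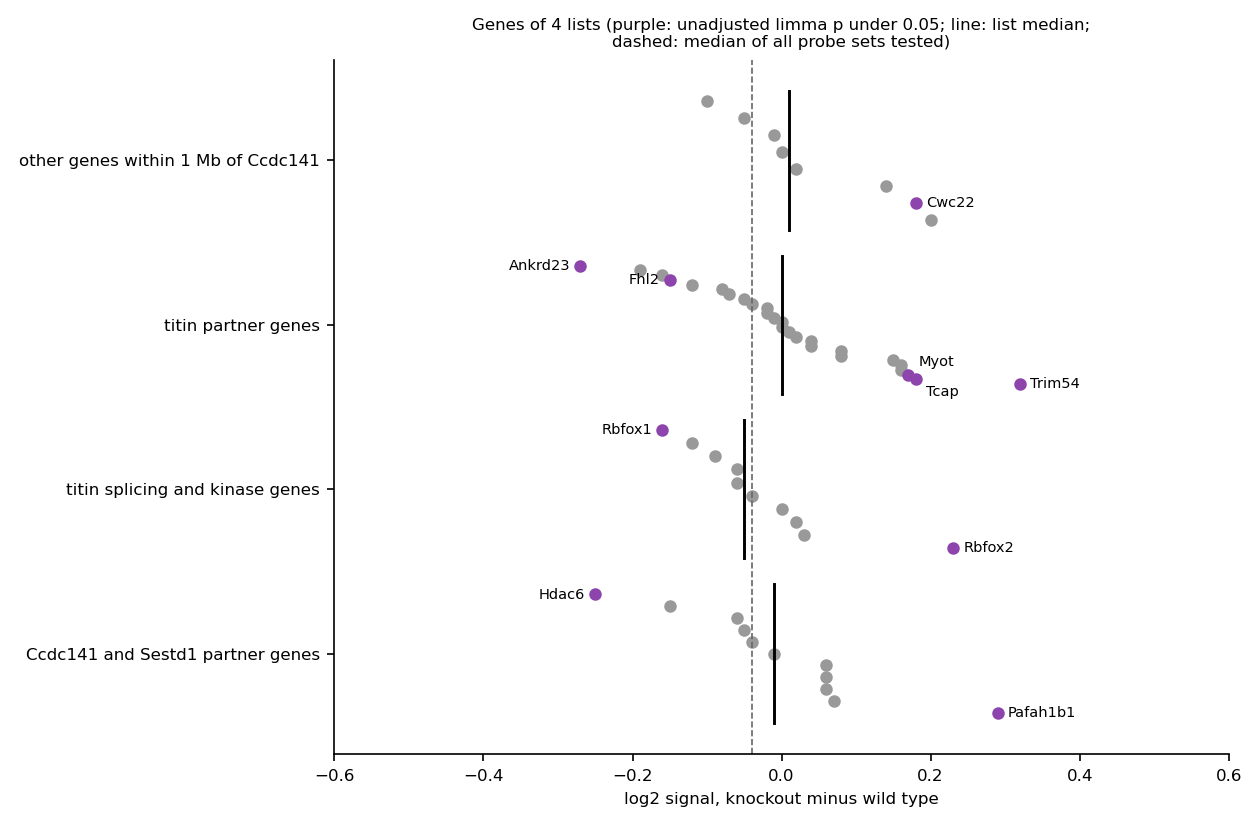
Log2 signal, knockout minus wild type (horizontal axis), of each tested gene in 4 lists; purple points had an unadjusted limma p under 0.05 and are named, black lines are list medians and the dashed line is the median of all probe sets tested, -0.04. List medians lie between -0.05 and 0.01, and no point passed the adjusted threshold.

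The genes whose pattern over the 6 arrays was most like that of the mean of the 5 Ccdc141 probe sets were ranked by Pearson correlation among 15295 other genes, 1 probe set each. The first 5 were Cnep1r1 at 0.998, Calcoco1 at 0.998, Cd81 at 0.997, Sike1 at 0.997 and Prxl2a at 0.997. They share the same 6 arrays with Ccdc141, and the genes were ranked on this measure, so it is a description only. With each genotype's mean subtracted the correlations were 0.99 for Cnep1r1 and Calcoco1 and 0.98 for Cd81, Sike1 and Prxl2a. These come from the same 6 arrays as the ranking, so they add no separate evidence. Among the 15295, 293 reached 0.95 or more and 51 were as strongly negative, with a median of 0.22.

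Cnep1r1 encodes a subunit of a nuclear envelope phosphatase, Cd81 a tetraspanin, Calcoco1 a coiled-coil coactivator, Sike1 a suppressor of IKK-epsilon signalling and Prxl2a a peroxiredoxin-like protein. Sike1, with a log2 difference of -0.59, came closest in size to the Ccdc141 mean at -0.64. Prxl2a measured 8.03, 8.13 and 7.60 in the knockout, against wild-type values of 8.74, 8.88 and 8.59, a log2 difference of -0.82. Calcoco1 differed by -0.38, Cnep1r1 by -0.32 and Cd81 by -0.32. In all 5 knockout replicate 3 was the lowest array and knockout replicate 2 the highest of the knockout arrays, as in the Ccdc141 mean. This shared order comes with the ranking on the same arrays and is no further evidence of likeness.

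**Figure D5:**
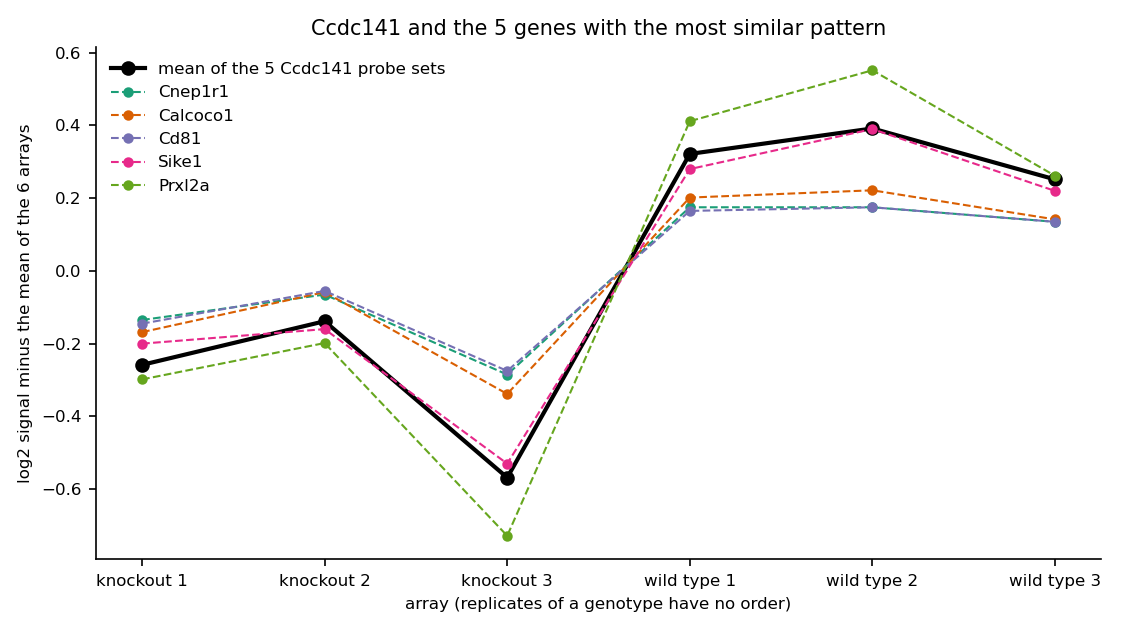
Log2 signal minus the mean of the 6 arrays (vertical axis) for the mean of the 5 Ccdc141 probe sets (black) and the 5 genes with the highest Pearson correlation to it, on each array; lines only join the points of 1 gene. Every line is lowest at knockout replicate 3, and all 3 wild-type points of each gene are above its knockout points.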

How the data were processed

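Expression in 6 left ventricles was deposited by the authors as log2 values of 35556 probe sets. The submitters' processing notes name MAS5 without role or version; the sources used here do not give the summarization, scaling or genome build. The log2 scale was settled from the values, 0.46 to 13.72. Values were used as deposited. The platform annotation gave 1 symbol to 21789 probe sets, several to 1621 and none to 12146. Symbols were updated through RefSeq (GRCm38.p6), which matched 21698, and gene order and promoters came from there.

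Knockout minus wild type was tested in limma 3.58.1 (R 4.3.3; lmFit, eBayes with trend, tested on simulated data) over the 24898 probe sets with a mean at or above the 30th percentile, two-sided, Benjamini-Hochberg, threshold 0.05. Lists took each gene's probe set with the highest mean and named at most 4 genes with the smallest p. Rbm20, Disc1, Myh6, Actn2, Myh10 and the Trpc genes were named besides, for their roles. The members and lists were chosen with earlier results of these data known. Alternatives were other scalings, filters, covariates, array weights and leaving out each array. Same-numbered arrays did not deviate together (correlations of -0.06, 0.02 and -0.06, against -0.06 to 0.07 over all pairs of a knockout and a wild-type array). This shows no pairing by number but cannot exclude one, and no pairing was used in the main fit. The number of arrays limits the precision.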

Additional observations from a re-analysis of the deposited data

How the results depend on the processing

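Under the scalings run on all 6 arrays, the count of Ccdc141 probe sets lower without overlap stayed at 4, beside 12.9% of all probe sets tested as deposited. With 1 array left out non-overlap is easier to reach, and the share over all probe sets was not computed, so no such count is given. No difference of a Ccdc141, Ttn or Sestd1 probe set changed direction under the alternatives run. Ttn ranged from 0.04 to 0.12 (limma adjusted p 0.331 to 0.857) and Sestd1 from -0.10 to -0.04 (0.624 to 0.891), so neither passed under any of these alternatives. The count of all probe sets past the adjusted threshold was 1, and it was 34 with age as a covariate, 361 over annotated probe sets only, 126 with array weights, 48 with the filter at the 50th percentile, 134 with probe sets averaged per gene, 105 after median centring, 130 after quantile normalization and 0 with the replicate number as a block, and from 0 to 11 without 1 array, 11 being the count without wild-type replicate 2. Unadjusted p-values under 0.05 numbered 3257 with the block. Among the genes within 1 Mb, 1 had an unadjusted p under 0.05, and 0 had one with age as a covariate, the gene means, no intensity trend or the block (0 or 1 without 1 array). The titin splicing and kinase list had 2, and 1 with age, either scaling, no trend or the block, and 3 with probe sets averaged per gene (0 to 1 without 1 array). The list of Ccdc141 and Sestd1 partners had 2, and 1 with array weights (1 to 2 without 1 array), and titin partners had 5 (3 to 7 without 1 array). The cause of these changes was not tested. No background or detection call was used, which limits what dim probe sets such as that of Trpc4 show.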

Other observations

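A pair of probe sets whose IDs fall between that of Ttn and those of Ccdc141 went the other way from Ccdc141. The annotation does not list them, so they are not assigned to a gene here, and they were singled out after their values were seen. Probe set 10484190 measured 9.39, 9.58 and 9.78 on knockout replicates 1 to 3 and 9.40, 9.06 and 8.94 on the wild-type arrays, a log2 difference of 0.45, with knockout replicate 1 just below wild-type replicate 1. Probe set 10484195 measured 9.07, 9.16 and 9.26 against 8.98, 8.90 and 8.82, a log2 difference of 0.26, with all knockout arrays above all wild-type arrays, as in 6.12% of all probe sets tested.

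Knockout replicate 3, the lowest knockout array in all 5 Ccdc141 probe sets, was the highest array in both. Their IDs alone do not settle their place on the chromosome. Within each strand, the IDs of the genes within 1 Mb otherwise rose with position. The exception was 7 of the 8 Cwc22 probe sets, whose IDs follow those of plus-strand genes although Cwc22 is on the minus strand. Which transcript 10484190 and 10484195 read is not known from the sources used here.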
